A study of Mus musculus with 20 samples.

Results

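The members are 7 GABA-A receptor subunit genes, chosen by symbol in the deposited gene table: Gabra2, Gabra3, Gabra4 and Gabra5 of the alpha class, Gabrb1 and Gabrb2 of the beta class, and Gabrd, the delta subunit. They are 7 of the 48709 genes counted and 7 of the 19 GABA-A subunit genes in that table, and all 7 passed the filter on low counts, as did 19797 genes in all. RNA of the hippocampus was sequenced from 20 C57BL/6 mice (C57BL/6J in the methods of the study), 5 from each of 4 groups, namely females and males of control dams and females and males of nPM dams. nPM is nano-sized particulate matter of urban air, which pregnant dams inhaled on 3 days of each week, 5 h a day, from gestational day 2 until birth. Control dams breathed filtered air. The dose is 300 μg/m3 in the methods of the study and 300 mg/m3 in the labels, and the larger unit was not used here.

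Labelled ages were 17.71 to 18.29 weeks in the 10 females and 18.57 to 19.14 weeks in the 10 males, so age and sex cannot be told apart. Brains were perfused with saline, and the hippocampus was taken from the right hemisphere. The males had also received EdU, a label of dividing cells, whether or not their dams inhaled nPM. The methods describe the injection for male mice and add that every animal had it, so whether females received EdU is not clear. Offspring came from 5 litters per exposure group, and the litter of each sample is not given in the sources used here. Siblings may therefore be counted as separate animals, and p-values measure the spread between samples.

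A GABA-A receptor is a chloride channel built of 5 subunits around a pore, usually alphas and betas with either a gamma or a delta subunit, and it carries most of the fast inhibition of the brain. The alpha subunit largely sets where the receptor sits and which benzodiazepines bind it. In the hippocampus, receptors with alpha5 carry much of the tonic current of pyramidal cells, and receptors of alpha4 and delta do so in dentate granule cells. Neurosteroids, made from progesterone and related steroids, act strongly on receptors with delta. The comparisons ask whether the RNA of these subunits differed with the dam's exposure, in each sex and in both.

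The 7 genes lie on 5 chromosomes (coordinates of mm10, as deposited). Gabra2 spans chr5:70957597-71095849 on the minus strand. On the same chromosome, Gabra4 at chr5:71569749-71658308, minus strand, and Gabrb1 at chr5:71658113-72149037, plus strand, stand head to head, and their spans overlap by 196 bases, of which 46 are exonic in both. Gabra5 lies at chr7:57407672-57510059 on the minus strand and shares 148 exonic bases with the gene model Gm9962. Gabrb2 lies at chr11:42419757-42629028 on the plus strand. Gabra3 is at chrX:72432681-72656848 on the minus strand, and Gabrd at chr4:155384980-155398112 on the minus strand. No source used here states whether counting used strand, so reads of overlapping genes on opposite strands cannot be told apart.

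Promoter windows are shown for the genes of the pairs that varied together most, Gabra2 with Gabrb1 and Gabra3 with Gabrb2. The RefSeq table of build GRCm38.p6 (mm10) holds windows of 300 bases, from 250 before to 50 after a transcription start, for 6 of the 7 members, with 10 windows in all. Gabrd had no entry. Sequences are printed along the strand of the gene. Capitals mark matches to TATAAA, the sequence of a TATA box, or GGGCGG, that of a GC box, on either strand. Whether any match works as such an element was not tested. Of several windows of a gene, the first in the table is printed.
Gabra2, chr5:71095800-71096099, minus strand: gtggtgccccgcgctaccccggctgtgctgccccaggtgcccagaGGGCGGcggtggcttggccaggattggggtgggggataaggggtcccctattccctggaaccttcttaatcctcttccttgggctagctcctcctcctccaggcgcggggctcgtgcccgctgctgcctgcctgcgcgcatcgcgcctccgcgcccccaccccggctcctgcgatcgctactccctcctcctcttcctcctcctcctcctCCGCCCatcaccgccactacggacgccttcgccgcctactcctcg
Gabrb1, chr5:71657671-71657970, plus strand: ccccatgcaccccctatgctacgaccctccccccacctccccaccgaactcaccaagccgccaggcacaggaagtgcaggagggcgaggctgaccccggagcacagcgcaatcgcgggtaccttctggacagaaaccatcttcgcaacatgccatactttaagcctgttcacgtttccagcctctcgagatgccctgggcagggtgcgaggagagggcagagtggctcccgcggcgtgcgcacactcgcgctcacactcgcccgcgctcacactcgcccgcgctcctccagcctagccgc
Gabra3, chrX:72656870-72657169, minus strand: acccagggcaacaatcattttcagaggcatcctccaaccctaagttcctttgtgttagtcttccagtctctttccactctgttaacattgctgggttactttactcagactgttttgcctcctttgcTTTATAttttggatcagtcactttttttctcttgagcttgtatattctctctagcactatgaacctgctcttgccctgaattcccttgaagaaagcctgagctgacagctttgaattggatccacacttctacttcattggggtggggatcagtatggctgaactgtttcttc
Gabrb2, chr11:42420190-42420489, plus strand: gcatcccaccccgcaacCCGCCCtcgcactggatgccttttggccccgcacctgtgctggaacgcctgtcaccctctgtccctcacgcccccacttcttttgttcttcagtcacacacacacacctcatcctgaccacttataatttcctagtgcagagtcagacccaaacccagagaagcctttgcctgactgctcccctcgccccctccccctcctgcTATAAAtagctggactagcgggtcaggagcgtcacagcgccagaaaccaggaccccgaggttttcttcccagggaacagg
The Gabra2 window holds GGGCGG 2 times and 25 CG dinucleotides, and that of Gabrb1 holds 25 CG dinucleotides and neither motif. The Gabra3 window has 1 TATAAA, on the strand opposite to the gene (printed as TTTATA), and 0 CG dinucleotides. The Gabrb2 window has 1 TATAAA, on the strand of the gene, 1 GGGCGG, on the opposite strand, and 11 CG dinucleotides. Over all 32851 windows of the table, 13.6% hold TATAAA and 35.7% hold GGGCGG, and the median is 7 CG dinucleotides. None of the 10 windows held TGACGTCA, the cAMP response element, or GCGTGGGCG, a motif of the Egr factors, searched on both strands. These are in 1.79% and 0.612% of all windows. The remaining windows were also searched, and that of Gabra4 holds GGGCGG 2 times, while that of Gabra5 holds none of the 4 motifs.

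Between 19092067 and 38663408 reads per sample were counted on genes. Markers of dentate granule, CA1 and CA3 pyramidal cells were detected in every sample, and no marker list was at 0. Tissue of other regions was uneven. Summed choroid plexus markers had a median of 317 CPM (counts scaled to the library total). They spanned 45.9 to 499 CPM in control females, 53.7 to 8201 in nPM females, 32.5 to 7311 in control males and 76.2 to 5554 in nPM males. Control males 1 stood apart by cerebellar genes, a list set up after the data were seen: Gabra6, a subunit of cerebellar granule cells, was at 14.6 CPM there and at most at 0.778 CPM in the other 19 samples. The same library had the lowest levels of dentate granule cell, CA3 and oligodendrocyte markers. In nPM females 1, striatal markers summed to 623 CPM, against at most 210 in the other samples. Results were therefore also computed without these 2 libraries.

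**Figure D1:**
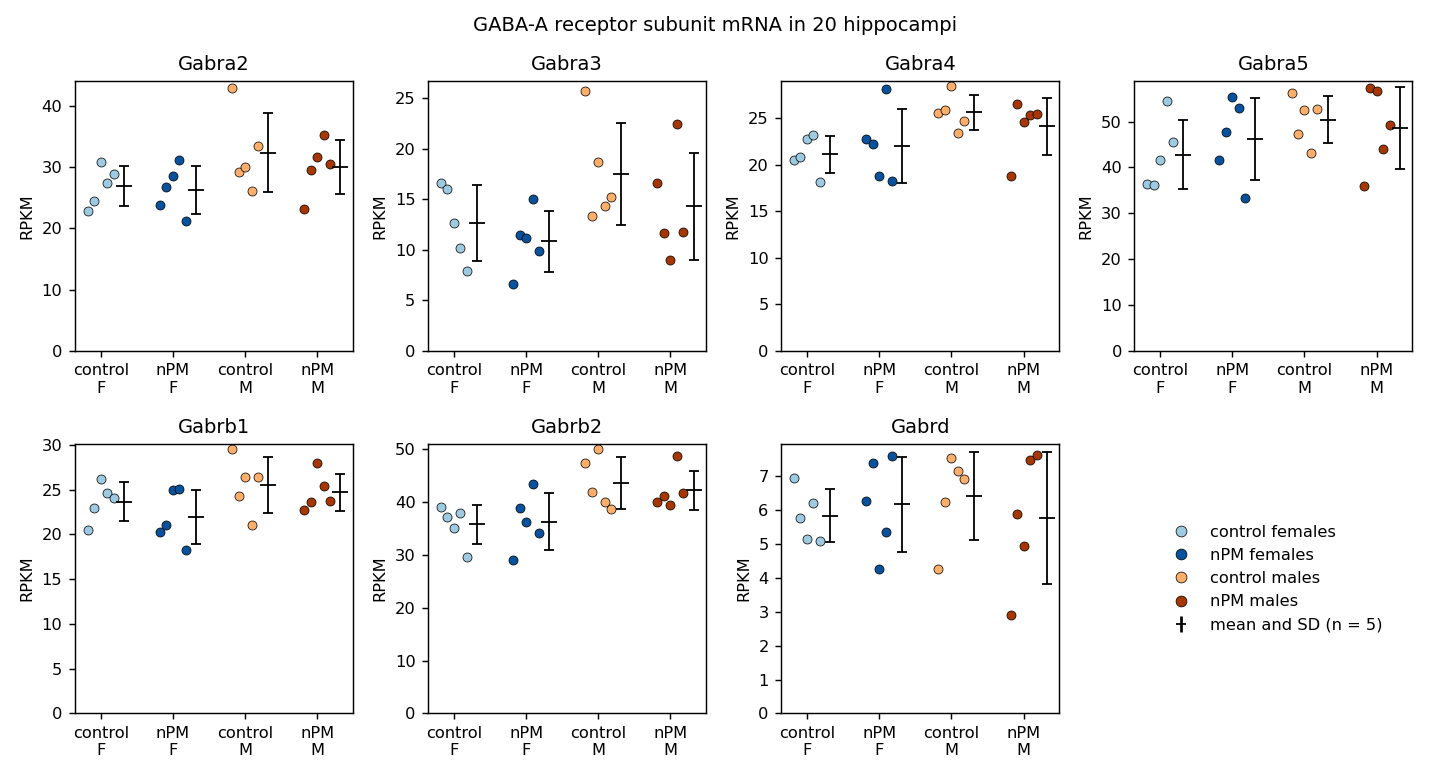
RPKM (reads per kilobase of exon, scaled to the library total) of the 7 subunit genes on a linear axis from 0, with 1 point per sample, in control and nPM females (F) and males (M), and the mean with SD over 5 samples beside each group. The nPM samples overlap the controls of their sex in every panel, and Gabra3 has the widest relative spread.

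Levels were first compared between genes per exon length, as RPKM. Gabra5 was the most abundant member, with a mean of 47.0 RPKM over 20 samples (SD 7.75), and Gabrd the least, with 6.05 (SD 1.33). Between them came Gabrb2 at 39.5 RPKM (SD 5.46), Gabra2 at 28.9 (SD 4.99), Gabrb1 at 23.97 (SD 2.79), Gabra4 at 23.2 (SD 3.18) and Gabra3 at 13.8 (SD 4.74). The order held within samples for most neighbours. Gabrb2 exceeded Gabra2, Gabra2 exceeded Gabrb1, and Gabra3 exceeded Gabrd in 20 of 20 samples, and Gabra4 exceeded Gabra3 in 19. Gabra5 exceeded Gabrb2 in 15 samples, with a log2 ratio of 0.24 ± 0.26 (SD, n = 20). That mean is smaller than the spread of single samples, and whether it differs from 0 was not tested. Gabrb1 and Gabra4 were not ordered, with Gabrb1 higher in 11 of 20 samples and a log2 ratio of 0.05 ± 0.19 (SD, n = 20).

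Of the subunit genes outside the list, the gammas Gabrg1 and Gabrg3 were at 5.66 and 3.21 RPKM, below all 7 members, and Gabrr2, a rho subunit known mostly from retina, was at 1.04. Gabra6, Gabrq, Gabrr1, Gabre, Gabrr3 and Gabrp were each under 0.4 RPKM on average, and the Gabra6 mean of 0.363 rests on control males 1 at 5.87.

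The members differed in how steady they were. The coefficient of variation of RPKM over the 20 samples was 34.3% for Gabra3, 22.0% for Gabrd, 17.3% for Gabra2, 16.5% for Gabra5, 13.8% for Gabrb2, 13.7% for Gabra4 and 11.6% for Gabrb1. Gabra3 differed 3.88-fold between its lowest and highest sample and Gabrb1 1.62-fold. Every member had at least 281 counts in every sample, so counting noise was a small part of these spreads.

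Gabra2 encodes the alpha2 subunit, found at synapses and at the axon initial segment. Its RPKM was 22.8, 24.5, 30.8, 27.5 and 29.0 in control females 1 to 5 and 23.8, 26.7, 28.6, 31.3 and 21.2 in nPM females 1 to 5. It was 43.0, 29.2, 30.1, 26.1 and 33.5 in control males 1 to 5 and 23.1, 29.6, 31.7, 35.3 and 30.6 in nPM males 1 to 5. Both pairs of groups overlapped, and the highest value was that of control males 1, the library with cerebellar genes. The log2 fold change with nPM was -0.07 over both sexes (SE 0.09, n = 10 per exposure, limma p = 0.459). It was -0.11 in males and -0.02 in females. The difference of mean log2 CPM was -0.10 in males (exact permutation p = 0.556) and -0.04 in females (p = 0.786).

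Gabra3, on the X chromosome, encodes the alpha3 subunit, which is abundant in the fetal brain and in adult monoaminergic and thalamic reticular neurons. Its RPKM was 16.6, 16.0, 12.6, 10.2 and 7.86 in control females 1 to 5 and 6.64, 11.5, 11.2, 15.02 and 9.86 in nPM females 1 to 5. It was 25.8, 13.3, 18.7, 14.3 and 15.3 in control males 1 to 5 and 16.6, 11.7, 8.97, 22.5 and 11.7 in nPM males 1 to 5. Its nPM means were the lower ones in both sexes, and both pairs of groups overlapped. Over both sexes, the log2 fold change was -0.28 (SE 0.18, n = 10 per exposure, limma p = 0.123, 95% interval of the fold 0.638 to 1.06), the largest size among the members. It was -0.32 in males and -0.23 in females. The difference of mean log2 CPM was -0.32 in males (exact permutation p = 0.294) and -0.22 in females (p = 0.444). The sizes moved with single samples. Without nPM males 4, the highest of its group, the log2 fold change was -0.37 over both sexes (SE 0.17) and -0.50 in males (SE 0.21), with limma adjusted p of 0.9999 and 0.931 (unadjusted p under 0.05 in both). Without control males 1 it was -0.17 in males, and without nPM females 1 it was -0.06 in females. Without control males 1 and nPM females 1, it was -0.13 over both sexes (SE 0.16).

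Gabra4 and Gabra5 encode subunits of receptors outside the synapse. Gabra4 was at 18.2 to 23.2 RPKM in control females, 18.2 to 28.1 in nPM females, 23.4 to 28.5 in control males and 18.8 to 26.5 in nPM males. Gabra5 was at 36.2 to 54.4, 33.3 to 55.4, 43.2 to 56.2 and 35.9 to 57.2 RPKM in the same order of groups. Within each sex, the control and nPM ranges overlapped for both genes. The log2 fold change of Gabra4 with nPM in both sexes was -0.03 (SE 0.08, n = 10 per exposure, limma p = 0.733), and that of Gabra5 was 0.02 (SE 0.10, p = 0.880).

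Gabrb1 and Gabrb2 encode beta subunits, which complete the GABA binding site together with an alpha. Gabrb1 was at 20.5, 22.9, 26.2, 24.6 and 24.1 RPKM in control females 1 to 5 and at 20.3, 21.1, 24.9, 25.1 and 18.2 in nPM females 1 to 5. It was at 29.6, 24.3, 26.4, 21.1 and 26.5 RPKM in control males 1 to 5 and at 22.7, 23.6, 28.0, 25.4 and 23.8 in nPM males 1 to 5. The highest and the lowest sample of Gabrb1 were those of Gabra2, namely control males 1 and nPM females 5. The log2 fold change of Gabrb1 with nPM was -0.08 over both sexes (SE 0.07, n = 10 per exposure, limma p = 0.253).

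Gabrb2 was at 39.0, 37.3, 35.1, 38.1 and 29.6 RPKM in control females 1 to 5 and at 29.0, 38.8, 36.2, 43.5 and 34.2 in nPM females 1 to 5. It was at 47.5, 41.9, 50.04, 40.04 and 38.6 RPKM in control males 1 to 5 and at 40.1, 41.2, 39.5, 48.8 and 41.8 in nPM males 1 to 5. Controls and nPM samples overlapped in each sex, and the lowest sample, nPM females 1, was also the lowest for Gabra3. With nPM, the log2 fold change of Gabrb2 was -0.02 over both sexes (SE 0.07, n = 10 per exposure, limma p = 0.830), with a 95% interval of the fold from 0.894 to 1.10.

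Gabrd, the delta subunit of tonic, neurosteroid-sensitive receptors, was at 5.09 to 6.96 RPKM in control females and 4.27 to 7.61 in nPM females. In males it was at 4.26 to 7.53 RPKM in controls and 2.90 to 7.64 with nPM. The lowest sample of all was nPM males 1. Of the 20, this library had the highest thalamic and the lowest CA1 and neuronal marker levels (mean log2). Whether these bear on its Gabrd level was not tested. Over both sexes, the log2 fold change of Gabrd was -0.10 (SE 0.16, n = 10 per exposure, limma p = 0.555). It was -0.24 in males and 0.07 in females. The difference of mean log2 CPM was -0.21 in males (exact permutation p = 0.540) and 0.06 in females (p = 0.730). Without nPM males 1 the log2 fold change was -0.0018 in males and 0.03 over both sexes.

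No member passed any threshold for nPM. With sex as a covariate, limma-voom gave 0 of 7 members with p under 0.005, the threshold of the study, while 0.141% of the 19797 genes passed it. The share of all genes was 0.202% in males, 0.0909% in females and 0.217% for the interaction of sex and exposure, again with 0 of 7 members. At an unadjusted p under 0.05 the count of members was also 0 in each of the 4 fits, where 2.1%, 4.33%, 1.99% and 3.79% of all genes passed. At a Benjamini-Hochberg adjusted p under 0.05 it was 0 of 7 in each, as it was for all genes. The edgeR quasi-likelihood and DESeq2 tests gave 0 members as well.

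In both sexes together, 1 member had a positive and 6 a negative log2 fold change, with a median of -0.07, against -0.01 over all genes, of which 47% were positive. In males 0 were positive and 7 negative, with a median of -0.10 against -0.01 over all genes, of which 46.7% were positive. In females 4 were positive and 3 negative, with a median of 0.03 against 0.0038 over all genes, of which 51.2% were positive. For the interaction 1 was positive and 6 negative, against 52.5% positive over all genes. The median absolute log2 fold change of the members and of all genes was 0.07 and 0.06 in both sexes together, 0.10 and 0.10 in males, 0.07 and 0.09 in females, and 0.07 and 0.15 for the interaction. The interaction, the male minus the female nPM effect, ranged from -0.28 for Gabrd (SE 0.32, and -0.06 without nPM males 1) to 0.07 for Gabrb1 (SE 0.14), with limma adjusted p from 0.987 to 0.994 over the members. The signs of members are not independent, as 16 of 21 pairs had positive r within groups (below). Marker lists were uneven in males too: 7 of 7 neocortical and 6 of 7 choroid plexus markers were negative. Positive were 7 of 8 thalamic, 5 of 5 dentate granule cell and 6 of 6 oligodendrocyte markers. Whether tissue make-up bears on the signs of the members was not tested.

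Exact two-sided permutation tests of log2 CPM within each sex, 14 in all, gave p from 0.294 for Gabra3 in males to 0.929 for Gabrb2 in females, and adjusted p from 0.846 to 0.929. The smallest p that 5 against 5 samples allow is 0.00794. The 95% intervals show what these samples could have held. For 5 of the 7 members, the interval of the fold in both sexes together lay between 0.835 and 1.17, and it was widest for Gabra3 (0.638 to 1.06) and Gabrd (0.744 to 1.18).

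**Figure D2:**
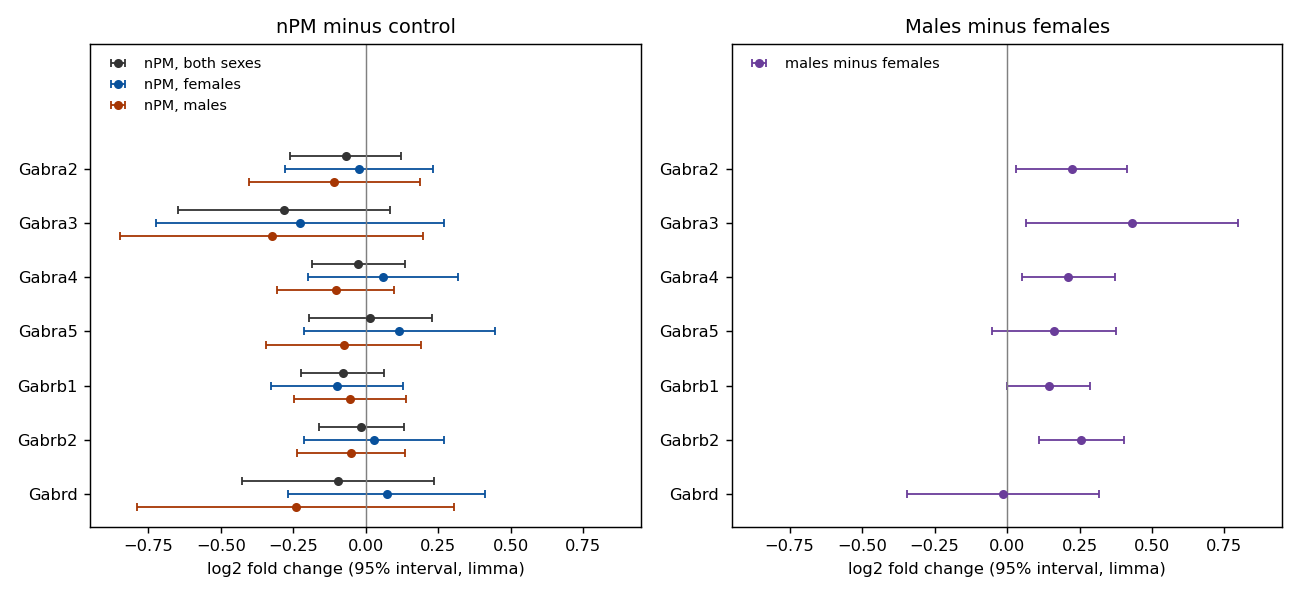
Log2 fold changes of the 7 genes from limma-voom with 95% intervals, for nPM against control (left: both sexes with sex as a covariate, females, males) and for males against females with exposure as a covariate (right). Every nPM interval includes 0, and 5 of the 7 intervals of males against females lie above 0.

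Males against females, with exposure as a covariate, were compared as a second readout. Here sex and age cannot be told apart, nor can EdU if only males received it. Of all genes, 31.1% had p under 0.005, 48.4% had p under 0.05 and 40.4% an adjusted p under 0.05. Gabrb2 was higher in males, with a mean of 42.9 RPKM (SD 4.18, n = 10) against 36.1 (SD 4.37, n = 10), which is 0.26 on the log2 scale in limma (SE 0.07, p = 0.00157, adjusted p = 0.00639). Gabra4 was higher at the adjusted threshold, at 24.9 RPKM (SD 2.51) against 21.6 (SD 3.01), or 0.21 on the log2 scale (SE 0.08, adjusted p = 0.0331). Male and female ranges overlapped for both genes. With p under 0.05 there were 5 of 7 members, all higher in males as were 23.3% of all genes, with p under 0.005 there was 1, and with adjusted p under 0.05 there were 2. The shares of members thus lay on both sides of those of all genes. A positive log2 fold change was found for 6 of 7 members and for 52.2% of all genes.

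Gabra3 had the largest male minus female log2 fold change, 0.43 (SE 0.18, limma adjusted p = 0.0549). It was 0.22 for Gabra2 (SE 0.09, adjusted p = 0.0576) and 0.14 for Gabrb1 (SE 0.07, adjusted p = 0.1001), and these 3 did not pass the adjusted threshold. For Gabra5 it was 0.16 (adjusted p = 0.217), and for Gabrd -0.01 (adjusted p = 0.951), the latter with a 95% interval of the fold from 0.787 to 1.25. With the level of choroid plexus markers as a covariate, added after the data were seen, Gabra3 passed the thresholds (log2 fold change 0.61, adjusted p = 0.00074). Without control males 1 and nPM females 1 it was 0.28 (adjusted p = 0.185), and Gabrb2 was 0.21 (adjusted p = 0.0218). With age as a covariate, which nearly repeats sex here, 0 members passed.

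Within groups, some of the subunits varied together. After the mean of each of the 4 groups was subtracted, log2 CPM of 2 members was correlated over the 20 samples for all 21 pairs. Of these, 16 correlations were positive and 5 negative, with r from -0.40 to 0.87 and a median of 0.31. Of the 21 pairs, 4 passed an adjusted permutation p of 0.05, and all 4 were positive. The share of pairs that pass among all genes was not computed, so this count does not set the subunits apart from other genes.

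**Figure D3:**
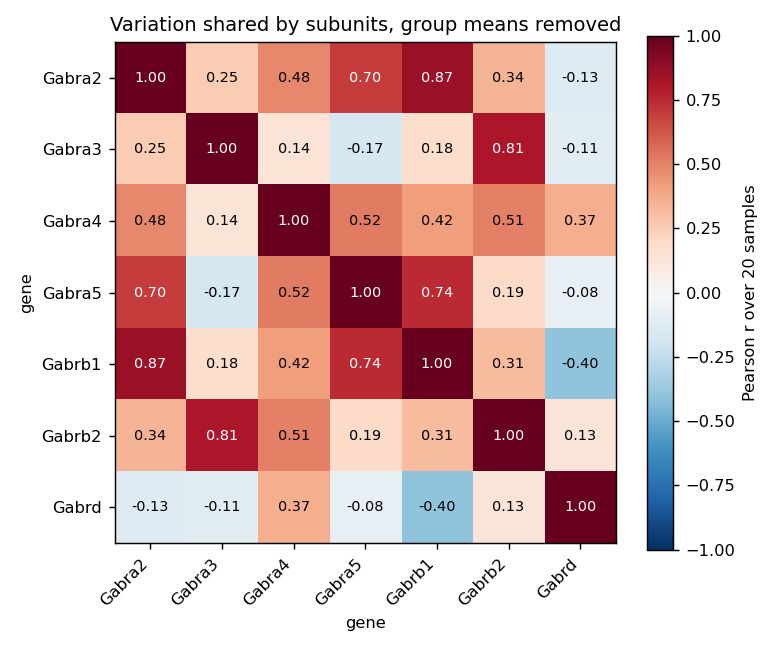
Pearson r between the 7 genes over 20 samples, from log2 CPM with the group means subtracted, on a colour scale from -1 (blue) to 1 (red). Gabra2, Gabra5 and Gabrb1 are linked by r of 0.70 to 0.87, Gabra3 is linked with Gabrb2 (0.81), and Gabrd has its lowest r with Gabrb1 (-0.40).

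Gabra2 and Gabrb1, on chromosome 5 with 562263 bases between them and Gabra4 in that interval, had the highest correlation, r = 0.87 (Spearman rho 0.89, permutation p = 7.0e-05, adjusted p = 0.00136). It was 0.95 in females and 0.81 in males, 0.87 without the 2 samples farthest from the median of Gabra2, and 0.84 to 0.89 with each sample left out in turn. Gabra3 and Gabrb2, on different chromosomes, followed with r = 0.81 (rho 0.79, permutation p = 0.00013, adjusted p = 0.00136), 0.88 in females and 0.73 in males. It was 0.73 without the 2 farthest samples.

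Gabra5 correlated with Gabrb1 at r = 0.74 (rho 0.73, permutation p = 0.00045, adjusted p = 0.00315; 0.81 in females, 0.65 in males) and with Gabra2 at r = 0.70 (rho 0.67, p = 0.0009, adjusted p = 0.00472). The latter was 0.80 in females and 0.64 in males. Without the 2 farthest samples these were 0.68 and 0.66. Within 1 sex, with 10 samples each, 2 pairs passed in females and 0 in males, although all 4 had the same sign in both.

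Gabra4 and Gabrb1, whose exons overlap head to head, were less alike, with r = 0.42 (rho 0.38, permutation p = 0.110, adjusted p = 0.256). Gabra3 and Gabra5 had r = -0.17 (adjusted p = 0.669). For Gabrd no pair passed, and its r with Gabrb1 was -0.40 (rho -0.45, permutation p = 0.0889, adjusted p = 0.233), with -0.84 in females and -0.14 in males. The difference between the sexes was not tested. These Gabrd values depend on nPM males 1, its lowest sample. Without that library, 3 Gabrd pairs passed, all negative: r was -0.73 with Gabrb1 (adjusted permutation p = 0.0147), -0.64 with Gabra2 (adjusted p = 0.042) and -0.58 with Gabra5 (adjusted p = 0.0471).

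**Figure D4:**
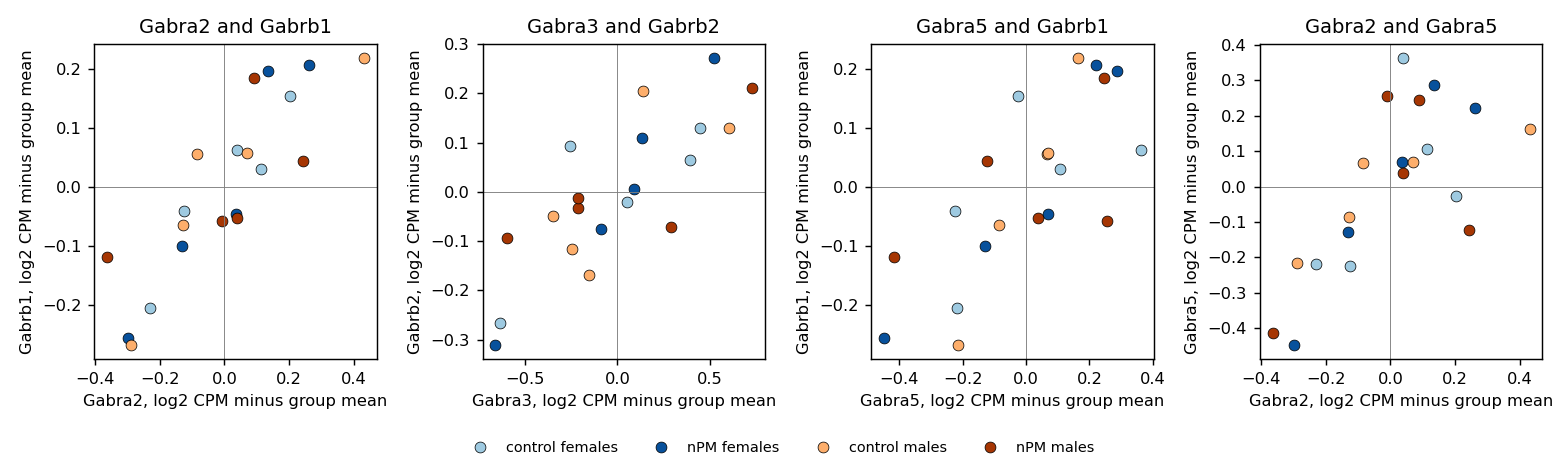
The 4 pairs that passed, each sample as 1 point coloured by group, in log2 CPM minus the mean of its group (each panel with its own linear axes). Samples of all 4 groups lie along each rising cloud.

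Each member was also compared in this measure with the 19796 other genes tested, over 20 samples. Among the 3 genes most like Gabrb2 were Sgtb (r = 0.92) and Lrrc4c (0.92). For Gabra2 the 3 most alike were Ccdc148 (r = 0.94), Grm5 (0.92), a metabotropic glutamate receptor, and St6galnac5 (0.91), and Gabrb1 ranked 9. Those for Gabra3 were Rgs17 (0.94), a regulator of G protein signalling, Zwint (0.94) and Cntn6 (0.93), with Gabrb2 at rank 151.

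For Gabra4 they were Cdk17 (0.91), Snx7 (0.86) and the cation channel Trpc1 (0.86), and for Gabra5 the phosphatase Ppm1e (0.94), Crls1 (0.91) and Sema3e (0.89). Gabrb1 was most like 9330132A10Rik (0.93), Ogfrl1 (0.90) and Tnfaip8l3 (0.90). Among those for Gabrd were Ramp3 (0.83) and Scara3 (0.81), and Gabrd had the lowest leading r of the 7. Ramp3 is also 1 of the 8 thalamic markers used here. With the mean level of those markers, Gabrd had r = -0.12 (rho 0.16, permutation p = 0.664). The values for single genes describe shared variation over the same 20 libraries and carry no test.

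Because bulk tissue was sequenced, fewer cells of a type and less RNA per cell cannot be told apart. The members were therefore set beside 13 lists of marker genes of cell types and regions, in 91 correlations chosen after the data were seen. Of these, 5 passed an adjusted permutation p of 0.05 and all were negative. Gabra3 went down as choroid plexus markers went up (r = -0.75, rho -0.78, permutation p = 0.00013, adjusted p = 0.0118), with -0.71 in females and -0.79 in males. Gabra3 also had negative r with markers of dentate granule cells (-0.71, rho -0.75, p = 0.00049, adjusted p = 0.0223) and of CA3 pyramidal cells (-0.70, rho -0.73, p = 0.00109, adjusted p = 0.0248).

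Gabrb2 had r = -0.72 with choroid plexus markers (rho -0.73, permutation p = 0.00156, adjusted p = 0.0284), with -0.72 in females and -0.78 in males. Gabra5 had r = -0.70 with thalamic markers (rho -0.65, p = 0.00096, adjusted p = 0.0248), with -0.59 in females and -0.84 in males. Without the 2 samples farthest from the median, these 5 values of r ran from -0.76 to -0.60. Without control males 1 and nPM females 1 the same 5 had r from -0.69 to -0.56, and 0 of the 91 passed. In 1 sex alone 0 passed. What part dissection had in the levels of these subunits was not tested.

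**Figure D5:**
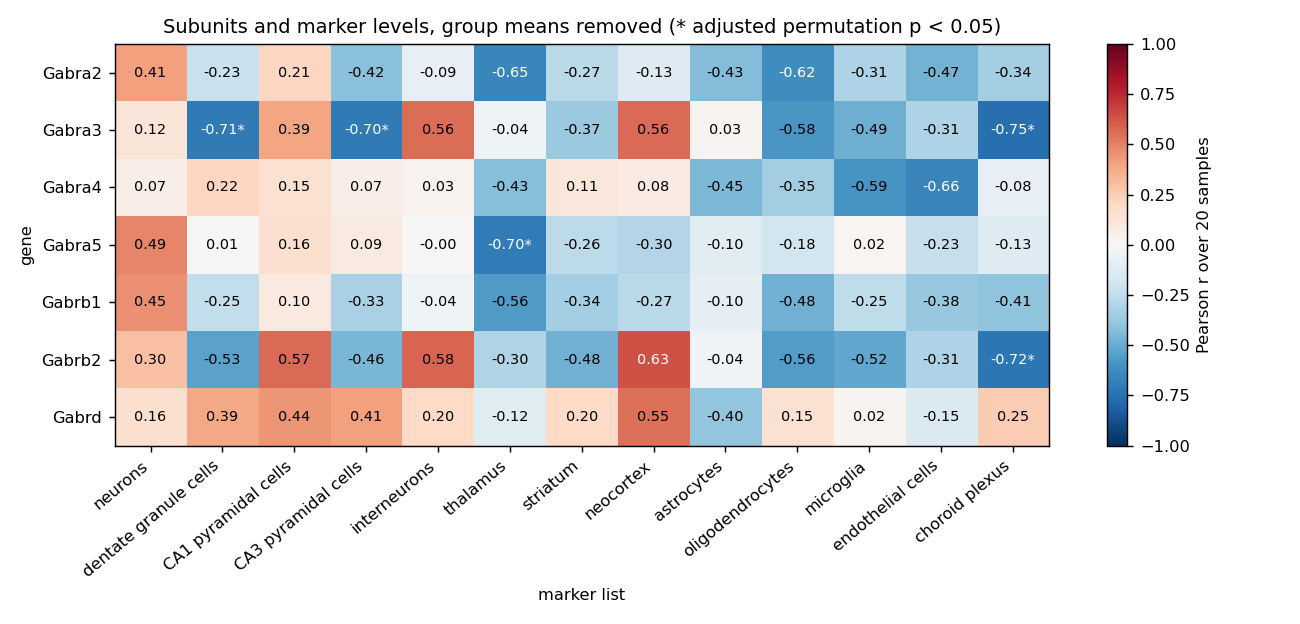
Pearson r over 20 samples between each of the 7 genes and the mean level of 13 marker lists, both with group means subtracted, on a colour scale from -1 (blue) to 1 (red), with an asterisk for the 5 that passed. Gabra3 and Gabrb2 share negative values for choroid plexus, and Gabrd has none that passed.

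The other genes of GABA signalling were examined by lists. Of the 12 other subunits, 8 were tested, and with sex as a covariate 0 had p under 0.05 for nPM, 1 being positive and 7 negative (median log2 fold change -0.11, against -0.01 over all genes). In females, 1 of 8 had p under 0.05, beside 1.99% of all genes, namely Gabrr2, at -0.84 on the log2 scale (SE 0.35, limma adjusted p = 0.9998). Gabrr2 was at 1.01 to 3.49 RPKM in control females, with a median of 1.16. Control females 1 was the highest, and the next was at 2.13. In nPM females it was at 0.806 to 0.974 RPKM. Of 15 genes of receptor clustering and trafficking, 0 had p under 0.05 in any of the 4 nPM fits. For Gphn, the gephyrin scaffold of inhibitory synapses, the log2 fold change was -0.0022 over both sexes (SE 0.04, n = 10 per exposure, limma p = 0.955). The 4 genes of chloride and bicarbonate balance and the 5 of the GABA-B receptor likewise gave 0.

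Among 8 genes of GABA synthesis, packaging, uptake and breakdown, 2 had an unadjusted p under 0.05 for the interaction, as did 3.79% of all genes, and 1 had it in females. For 1 of the 2, Gad2, a GABA-synthesizing enzyme, the interaction was 0.45 (SE 0.19, limma adjusted p = 0.987), with -0.29 in females (SE 0.14) and 0.14 in males (SE 0.12). Gad1, the other such enzyme, had an interaction of 0.20 (SE 0.14), and Slc32a1, which loads GABA into vesicles, 0.50 (SE 0.27). Of 5 genes of neurosteroid synthesis, only Srd5a1, the reductase that starts the route to allopregnanolone, had p under 0.05, in males (log2 fold change -0.31, SE 0.13, limma adjusted p = 0.952). None of these passed p under 0.005.

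Between males and females, 5 of the 8 other subunits passed an adjusted p of 0.05, beside 40.4% of all genes. Of these 4 were higher in males, among them Gabrg1 (log2 fold change 0.52, SE 0.11, limma adjusted p = 0.00073), and Gabrr2 was lower (-0.87, SE 0.31, adjusted p = 0.0317). Of the 15 clustering and trafficking genes 8 passed, 5 higher and 3 lower, among them Gabarap (0.34) and Gabarapl1 (0.33), which bind receptors in transit, and Nlgn2 (-0.42), an adhesion protein of inhibitory synapses, and Iqsec3 (-0.60). The potassium-chloride exporter Slc12a5 (-0.28), the chloride channel Clcn2 (-0.31) and the carbonic anhydrase Car7 (-0.31) were lower in males, 3 of the 4 genes of that list.

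Gad1 (0.20) and the GABA transaminase Abat (0.18) were higher in males, 2 of 8. Gabbr2 (-0.23), a subunit of the GABA-B receptor, was lower, 1 of 5, and Kctd16 (-0.18, adjusted p = 0.0792) and Kctd12 (0.20, adjusted p = 0.0842) did not pass. Srd5a1 (0.39) was higher and Star (-0.59) lower, 2 of the 5 neurosteroid genes, while Tspo (0.72, adjusted p = 0.0656) and Cyp11a1 (-0.41, adjusted p = 0.0919) did not pass. Some markers were called between the sexes too, with adjusted p under 0.05, and the shares by list lay on both sides of the 40.4% of all genes. Called were 5 of 7 astrocyte markers (4 higher and 1 lower in males) and 3 of 6 microglial markers, all higher. Of the endothelial markers 3 of 5 and of the neuronal markers 2 of 5 were called, all lower. The lists of CA3, interneuron, striatal and oligodendrocyte markers had 1 each, and those of dentate granule cells, CA1, thalamus, neocortex, choroid plexus and cerebellum had 0. Their part in the values above was not tested.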

How the data were processed

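RNA-seq of 20 hippocampi was used. The authors depleted ribosomal RNA, trimmed adapters with Trimmomatic where needed, aligned reads to mm10 with HISAT2, counted them with featureCounts 1.5.0-p3 on Gencode M11, and deposited whole-number counts without normalization. They also deposited gene lengths, positions and a mean RPKM per gene, used here only as a description of the most alike genes. Members and lists were chosen with earlier results of these data known.

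From the counts, filterByExpr kept genes by the 4 groups (minimum count 10, minimum total 15), TMM factors were computed with edgeR 4.0.16 in the samples of each fit, and voom weights and moderated linear models came from limma 3.58.1 in R 4.3.3, with 0.5 counts added, for nPM with sex as a covariate, in males, in females, for the interaction, and for males against females. Thresholds were p under 0.005 and Benjamini-Hochberg adjusted p under 0.05 over all 19797 genes. RPKM divides counts by the TMM-scaled total and the deposited length. Correlations were tested by 100000 permutations of samples within groups, and differences within a sex by exact permutation, with Python 3.11.15 and scipy 1.17.1. Alternatives were DESeq2 1.42.0 (Wald), edgeR quasi-likelihood, RLE factors, other filters, quality weights, age, a replicate block, 1 fit of the 4 groups, and each sample left out. The fits were tested on simulated data.

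Named beside the members were the other subunit genes, up to 4 genes per list of GABA signalling with limma p under 0.05 in any fit, defining genes such as Gad1, Gad2, Slc32a1 and Gphn, and the 3 genes most correlated with each member. Some genes that this rule selects are not reported here. Gabra6 also served as a cerebellar gene. Gencode M21, on the same build, gave exon overlaps, and RefSeq gave promoters.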

Additional observations from a re-analysis of the deposited data

Results flagged for a closer look

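A sample far from the other 4 of its group drew attention for 2 members, by a gap to the nearest sample that is a large share of the group's range. Gabra4 in nPM males 1 was at 18.8 RPKM, against 24.6 to 26.5 in the other nPM males, and the gap was 0.782 of the range on the log2 scale. Gabrb2 in nPM males 4 was at 48.8 RPKM, against 39.5 to 41.8 in the others, and the gap was 0.731 of the range. The critical share for 5 samples is 0.71. Chance flags about 1 in 20 groups, and 29 groups were examined. In nPM males 1, thalamic markers summed to 256 CPM, the highest of the 20 samples. Its neuronal and CA1 marker levels (mean log2) were the lowest of the 20. Over all 20, with group means subtracted, Gabra4 had r = -0.43 with thalamic markers (permutation p = 0.0657, adjusted p = 0.243). It had r = 0.07 with neuronal and 0.15 with CA1 markers. Whether the tissue of this library bears on its Gabra4 level was not tested.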

How the results depend on the processing

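At p under 0.005 and at adjusted p under 0.05, the count of 0 members called for nPM held under every alternative run and with each sample left out. This was so in both sexes, in males, in females and for the interaction. At an unadjusted p under 0.05, Gabra3 passed in 1 of 20 fits with a sample left out over both sexes, and in 1 of 10 in males. Limits are the 5 samples per group, the confounding of sex with age and perhaps EdU, uneven dissection and unknown litters. For males against females, the 1 member with p under 0.005 became 2 with quality weights, 0 with age as a covariate, 2 with choroid plexus level and 0 without control males 1 and nPM females 1, and was 1 to 2 with single samples left out (2 without nPM females 4 or nPM males 1). The 2 members with adjusted p under 0.05 became 4 with DESeq2, 1 with a mean CPM of at least 1, 4 with quality weights, 0 with age and 5 with choroid plexus level. With single samples left out they were 1 to 4: 1 without control females 5, control males 3, nPM females 5, nPM males 2 or nPM males 4, and 4 without control males 4 or nPM females 4. The choroid covariate and leaving out both libraries were chosen after the data were seen.

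Of the 21 pairs, 4 passed over all samples, 2 in females alone, 0 in males alone, and 4 to 7 with single samples left out, the 7 without nPM males 1. Without division by length, 4 of the 6 neighbouring pairs in the order of levels kept their direction, and Gabrb1 came first.

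Small nPM effects changed sign: without the 2 libraries, Gabrb2 in both sexes (0.036), Gabra2 (0.0081) and Gabrb1 (0.0091) in males, Gabra2 in females (0.0072) and its interaction (0.00085). Gabra2 in females also turned with age (0.015) and choroid level (0.0033), and quality weights turned the interactions of Gabra2 (0.026) and Gabra3 (0.052). Gabrd between males and females turned with edgeR (0.019), DESeq2 (0.018), age (0.51) and without the 2 libraries (0.072). With single samples left out, signs turned within these log2 ranges: in both sexes, Gabra4 -0.067 to 0.016, Gabra5 -0.024 to 0.068, Gabrb2 -0.048 to 0.016 and Gabrd -0.16 to 0.028. In males they were Gabra2 -0.18 to 0.0081, Gabra5 -0.14 to 0.027, Gabrb1 -0.12 to 0.0091 and Gabrb2 -0.096 to 0.0087. In females they were Gabra2 -0.088 to 0.054, Gabra4 -0.031 to 0.12, Gabrb2 -0.038 to 0.10 and Gabrd -0.019 to 0.21. For the interaction they were Gabra2 -0.15 to 0.047, Gabra3 -0.26 to 0.0796, Gabrb1 -0.012 to 0.12 and Gabrb2 -0.15 to 0.011, and between males and females Gabrd -0.0698 to 0.11. The causes were not tested.

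Replicate numbers are shared between groups. Over 30 pairs of samples with the same number, the correlation of their deviations ran from -0.42 to 0.28 and was over 0.1 in 10. Its median was -0.0065, against 0.0017 over 120 pairs with different numbers. A median cannot show whether some of the numbers pair samples, and the main fits treated the samples as unpaired. A replicate block left 0 members called for nPM and 1 between males and females with p under 0.005, with a log2 fold change of -0.28 for Gabra3 with nPM in both sexes (limma p = 0.137, n = 10 per exposure).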
